A study of Rattus norvegicus with 14 samples.

Results

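This account covers steroid receptor genes and androgen-response genes in the postnatal rat epididymis, a long coiled duct that carries, matures and stores spermatozoa. The genes were taken by symbol from the annotation of the array: the oestrogen receptors Esr1, Esr2 and Gper1, the progesterone receptor Pgr, the glucocorticoid receptor Nr3c1, the mineralocorticoid receptor Nr3c2, the steroid 5-alpha-reductase Srd5a1, the receptor co-chaperone Fkbp5 and the sulfotransferase Sult2b1. Of these 9 genes 8 had a transcript cluster (the set of probes that reports on a gene) under their own symbol, and each of the 8 had a single cluster, out of 18166 genes measured. Srd5a1 was not analysed here, and neither were Srd5a2 and the androgen receptor gene. The RNA was isolated from total cells of pooled whole epididymides from rats of the Sprague-Dawley strain aged 7 days (3 pools), 18 days (4 pools), 28 days (4 pools) and 60 days (3 pools). The labels give no genotype or treatment that separates the ages, state that pups were kept with their lactating mothers and older rats were fed freely, and do not say how many animals made up a pool. Each pool was measured on its own Affymetrix RatGene 2.0 ST array, and the value of a gene is a log2 signal.

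Steroid hormones enter cells and bind receptors of the nuclear receptor family, which then bind DNA and change transcription. Androgens from the testis drive the growth and the secretory function of the epididymal epithelium, which converts testosterone to the more potent dihydrotestosterone with 5-alpha-reductases. Oestrogen acts in the male tract through Esr1 above all, and in the efferent ducts of the mouse it is needed for the uptake of fluid. Corticosteroids act through Nr3c1 and Nr3c2, and Fkbp5 is a gene that androgens, progestins and glucocorticoids all switch on in many cell types.

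The array medians ran from 5.21 to 5.42, and pools of 1 age correlated at 0.989 to 0.995 across the genes, which are not independent replicates. Replicate 2 of day 28 had the highest array median and differed from its group along the third principal component of all genes, with a score of 25.2 against 14.2 to 15.9 in the rest of that age. Background was set at a log2 signal of 4.92, the 95th percentile of 1344 olfactory and vomeronasal receptor genes. Markers of principal cells, the main secretory cells of the duct, identified the tissue from day 18 on: 4 of 10 were above background at day 7, 9 of 10 at day 18 and day 28, and 10 of 10 at day 60. The 6 principal cell markers under background at day 7 were Adam7, Crisp1, Rnase9, Rnase12, Cst11 and Defb1. In whole tissue, more cells of a type and more RNA per cell cannot be told apart, which applies to every value below. Nothing in the labels says that pools came from separate litters, so p-values measure the spread between these pools.

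Across the 4 ages the genes fell into 3 groups. Fkbp5, Sult2b1 and Nr3c2 were higher after day 7, Esr1 and Pgr fell at each step up to day 28 and Pgr again by day 60, and Nr3c1, Esr2 and Gper1 moved little. The joint F test of limma, which asks whether a gene differs between any of the ages, passed an adjusted p of 0.05 for 6 of the 8 genes, and it passed for 60.4% of all genes. The exceptions were Esr2 (adjusted p = 0.309) and Gper1 (adjusted p = 0.91). The difference between the highest and the lowest age mean was 3.00 for Sult2b1, 2.04 for Fkbp5, 1.82 for Pgr, 1.78 for Esr1 and 1.36 for Nr3c2 on the log2 scale. Between 90.8% and 98.5% of all genes had a smaller difference than these 5 genes. It was 0.26 for Nr3c1, and 21.3% of all genes had a smaller difference than that.

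**Figure D1:**
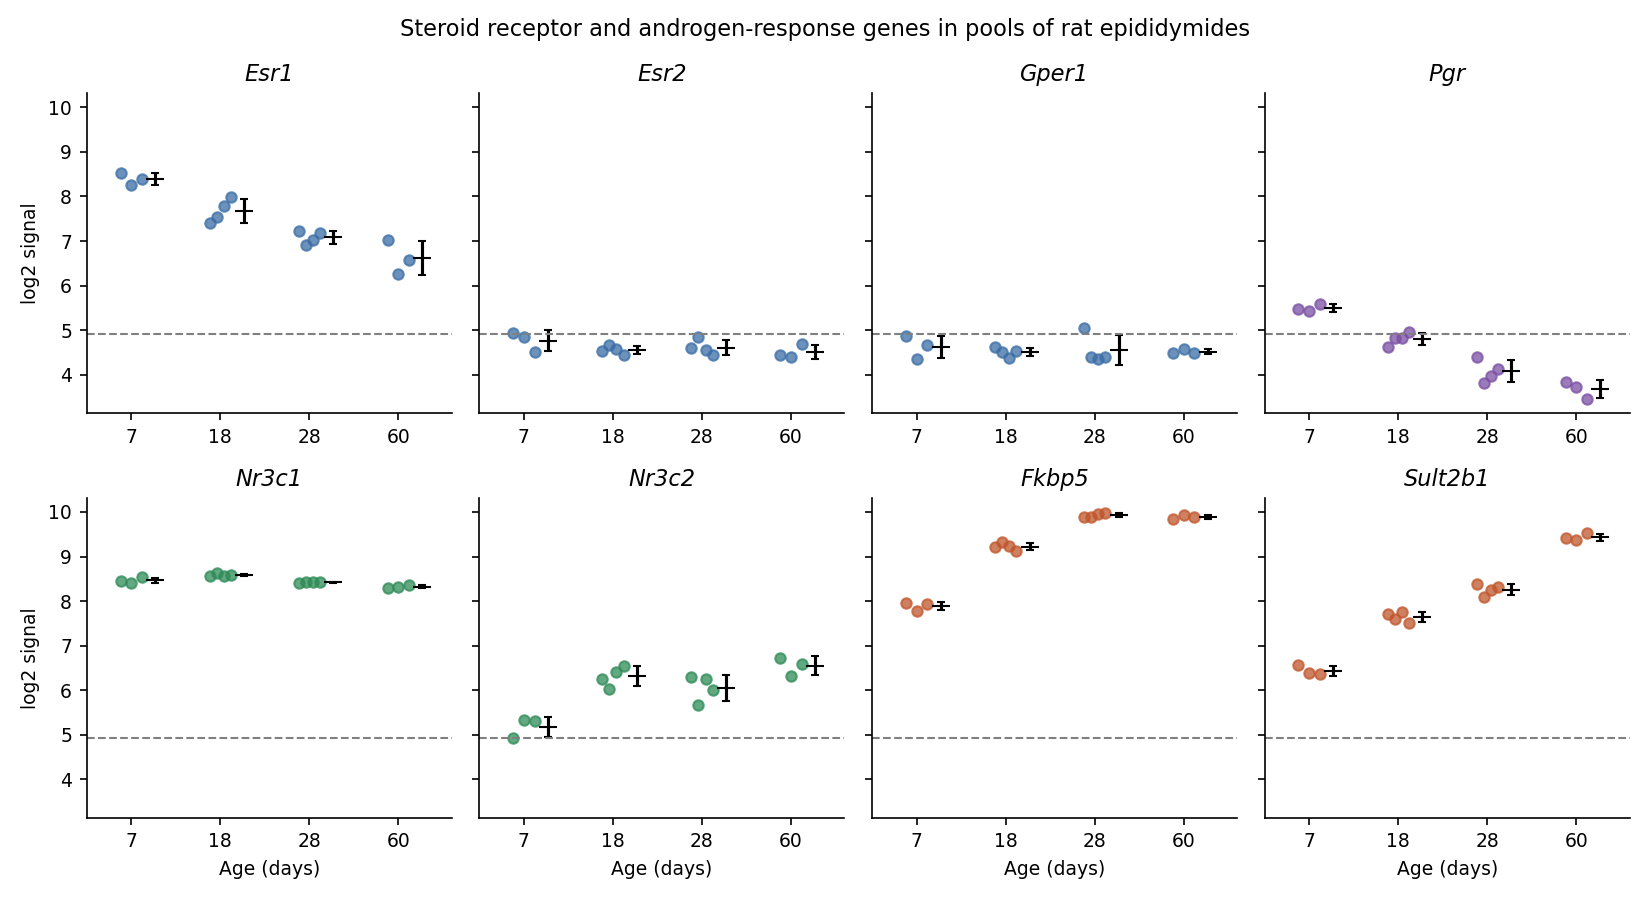
Log2 signal (vertical axis, shared by all panels) of the 8 genes against age in days (horizontal axis), with 1 point per pool, the mean with its SD as a black mark to the right of the points, and the background level of 4.92 as a dashed line. Fkbp5 and Sult2b1 stand higher at each age up to day 28 and Sult2b1 again at day 60, Esr1 and Pgr stand lower with each age, and Esr2 and Gper1 lie at or under the background level in nearly all pools.

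Fkbp5 encodes a co-chaperone that joins steroid receptors while they are held ready for hormone by the Hsp90 machinery, and it lowers the hormone affinity of the glucocorticoid receptor. Because Fkbp5 and Sult2b1 rose together over both early steps, and Pgr fell over the same steps, the 250 bases before the annotated start of each of these genes are shown. They are RefSeq sequences of the GRCr8 build read 5′ to 3′ on the strand of the gene. Capitals mark matches on either strand to GGGCGG (the GC box), CCAAT (the CCAAT box), CACGTG (the E-box), TATAAA (the TATA box), AGAACA (a half-site of the element shared by androgen, glucocorticoid, mineralocorticoid and progesterone receptors) and AGGTCA (a half-site of the oestrogen receptor element).
Fkbp5, chr20:6543556-6543805, minus strand: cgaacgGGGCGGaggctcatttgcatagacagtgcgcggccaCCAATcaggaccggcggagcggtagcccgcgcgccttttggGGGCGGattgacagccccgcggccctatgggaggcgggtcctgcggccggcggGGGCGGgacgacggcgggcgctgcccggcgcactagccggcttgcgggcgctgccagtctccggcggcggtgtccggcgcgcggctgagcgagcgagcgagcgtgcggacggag
Sult2b1, chr1:105397745-105397994, minus strand: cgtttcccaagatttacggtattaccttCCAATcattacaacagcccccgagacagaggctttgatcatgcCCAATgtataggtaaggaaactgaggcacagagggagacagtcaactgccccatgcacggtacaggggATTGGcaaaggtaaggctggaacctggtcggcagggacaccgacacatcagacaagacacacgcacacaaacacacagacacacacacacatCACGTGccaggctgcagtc
Pgr, chr8:14354148-14354397, plus strand: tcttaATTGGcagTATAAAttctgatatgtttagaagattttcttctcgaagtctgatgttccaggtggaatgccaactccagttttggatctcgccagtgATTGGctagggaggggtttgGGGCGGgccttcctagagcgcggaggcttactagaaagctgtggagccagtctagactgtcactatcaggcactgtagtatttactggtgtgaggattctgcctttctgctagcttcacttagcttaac

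The Fkbp5 window held 3 GC boxes and 1 CCAAT box, and its GC content of 76% was higher than that of 97.1% of the 33469 promoter windows in the table. The Sult2b1 window held 3 CCAAT boxes and 1 E-box at a GC content of 52.4%, close to the median of 51.2%. The Pgr window held 2 CCAAT boxes, 1 GC box and 1 TATA box at a GC content of 46.8%. Over all promoter windows the GC box occurred in 30.5%, the CCAAT box in 34%, the E-box in 5.59% and the TATA box in 12.9%. The receptor half-sites AGAACA and AGGTCA, which 17.5% and 14.1% of all windows hold, had 0 matches in these 3 windows and 0 in those of Esr1, Esr2 and Nr3c1, the other genes of the group found in the table. The full palindromes of the 2 elements occurred in 4 and 3 of all windows, and in none of these 6 genes. These counts describe the letters of short windows and nothing further away from the start.

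Fkbp5 had log2 signals of 7.95, 7.78 and 7.93 at day 7, of 9.21, 9.33, 9.23 and 9.12 at day 18, of 9.89, 9.89, 9.95 and 9.99 at day 28, and of 9.85, 9.93 and 9.88 at day 60. Every day 18 pool lay above every day 7 pool and every day 28 pool above every day 18 pool, while the day 60 pools lay within or just under the range of day 28. It rose by 1.34 ± 0.073 at day 18 against day 7 (log2 difference ± SE of the fit), which is 2.53-fold (limma adjusted p = 3.57e-09). It rose by a further 0.70 ± 0.068 at day 28 against day 18, or 1.63-fold (limma adjusted p = 2.78e-06). At day 60 against day 28 the difference was -0.04 with a 95% confidence interval of -0.20 to 0.12 (limma adjusted p = 0.733). Fkbp5 thus had its higher levels at day 28 and day 60, which did not pass the test against each other, then day 18 and then day 7.

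Sult2b1 encodes a sulfotransferase that adds sulfate to cholesterol and to 3-beta-hydroxysteroids such as pregnenolone, and cholesterol sulfate is a known component of sperm membranes. Its log2 signals were 6.57, 6.40 and 6.35 at day 7, 7.71, 7.60, 7.76 and 7.52 at day 18, 8.38, 8.10, 8.24 and 8.32 at day 28, and 9.43, 9.37 and 9.52 at day 60. No 2 ages overlapped, and each age stood above the one before it. Sult2b1 rose by 1.21 ± 0.090 at day 18 against day 7, or 2.31-fold (limma adjusted p = 7.73e-08). It rose by 0.61 ± 0.084 at day 28 against day 18, or 1.53-fold (limma adjusted p = 8.38e-05), and by 1.18 ± 0.090 at day 60 against day 28, or 2.26-fold (limma adjusted p = 5.74e-07). Over the whole span it was 7.99-fold higher at day 60 than at day 7, with a mean of 9.44 ± 0.078 in the 3 day 60 pools and of 6.44 ± 0.11 in the 3 day 7 pools (SD).

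Markers of principal cells rose with both genes up to day 28. At day 60 against day 28, where Sult2b1 rose again, 4 of 10 of these markers were called higher, beside 13.8% of all genes. The summed signal of the 10 markers, on the log2 scale, ran from 9.90 to 10.04 in the day 7 pools, from 13.78 to 14.12 at day 18, from 15.26 to 15.30 at day 28 and from 15.48 to 15.54 at day 60. Markers of some other cell types were higher at day 18 against day 7 as well, beside 17.4% of all genes: 3 of 5 for basal cells, 4 of 6 for clear and narrow cells, 5 of 6 for T lymphocytes and 4 of 6 for adipocytes. Called lower at that step, beside 20.7% of all genes, were 7 of 7 for fibroblasts, 3 of 4 for endothelium, 3 of 5 for smooth muscle and 1 of 6 for macrophages. The summed adipocyte signal ran from 8.08 to 8.48 at day 7, from 8.86 to 10.06 at day 18, from 9.59 to 10.50 at day 28 and from 10.60 to 10.75 at day 60. The part of these cell types in the rises of Fkbp5 and Sult2b1 was not tested. Haploid germ cell markers, genes transcribed in spermatids, had summed signals of 7.09 to 7.50 over day 7, day 18 and day 28 and of 10.65 to 11.11 at day 60, the age of the last rise of Sult2b1. Their part in that rise was not tested either.

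Nr3c2 encodes the mineralocorticoid receptor, which in salt-transporting epithelia responds to aldosterone. Its log2 signals were 4.92, 5.32 and 5.30 at day 7, 6.26, 6.03, 6.42 and 6.54 at day 18, 6.30, 5.66, 6.25 and 6.01 at day 28, and 6.72, 6.31 and 6.59 at day 60. All pools of the later ages lay above all day 7 pools, 1 of which was at the background level, and the day 28 pools overlapped those of day 18. Nr3c2 rose by 1.13 ± 0.17 at day 18 against day 7, or 2.19-fold (limma adjusted p = 7.02e-05). At day 28 against day 18 the difference was -0.26 with a 95% interval of -0.59 to 0.072 (limma adjusted p = 0.255). From there to day 60 it rose by 0.49 ± 0.17, or 1.40-fold, close to the threshold (limma adjusted p = 0.0448).

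That last call for Nr3c2 ended under 11 of 22 alternatives, and 8 of these left out a single pool. The adjusted p was then 0.0518 without day 7 replicate 2, 0.052 without day 7 replicate 3, 0.0543 without day 18 replicate 1, 0.0529 without day 18 replicate 3, 0.113 without day 28 replicate 2, 0.0838 without day 28 replicate 4, 0.168 without day 60 replicate 1 and 0.121 without day 60 replicate 3. Markers of clear and narrow cells, the proton-secreting cells of the duct, had summed signals of 9.08 to 9.28 at day 7, 10.94 to 11.10 at day 18, 10.28 to 10.54 at day 28 and 10.30 to 10.49 at day 60. At day 18 against day 7 they were higher for 4 of 6 and principal cell markers for 8 of 10, beside 17.4% of all genes. The part of these cell types in the rise of Nr3c2 was not tested. In order of level Nr3c2 ran day 60, day 18, day 28 and day 7. Day 60 did not pass against day 18 (difference 0.23 ± 0.17, limma adjusted p = 0.302) and day 28 did not pass against day 18, whereas day 28 passed against day 7 (0.87 ± 0.17, limma adjusted p = 0.000476).

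Nr3c1 encodes the glucocorticoid receptor, which most cell types carry. Its log2 signals were 8.46, 8.41 and 8.53 at day 7, 8.56, 8.62, 8.57 and 8.58 at day 18, 8.40, 8.42, 8.43 and 8.44 at day 28, and 8.30, 8.32 and 8.36 at day 60. No neighbouring ages overlapped, and the SD within an age was 0.015 to 0.061. It passed the F test (adjusted p = 0.0131) through the gap between its highest and its lowest age. Day 60 was lower than day 18 by 0.26, with a mean of 8.32 ± 0.028 in the 3 day 60 pools and of 8.58 ± 0.026 in the 4 day 18 pools (SD), or 1.20-fold (limma adjusted p = 0.00352).

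None of the steps between neighbouring ages passed for Nr3c1. The difference was 0.12 ± 0.062 at day 18 against day 7 (limma adjusted p = 0.158), -0.16 ± 0.057 at day 28 against day 18 (0.0551) and -0.098 ± 0.062 at day 60 against day 28 (0.277). The first of these passed after a second quantile normalization of the table (0.20, adjusted p = 0.016), and the middle one passed under 4 of 23 alternatives (adjusted p of 0.0228 to 0.131 over all 23). In order of level the ages ran day 18, day 7, day 28 and day 60, and no neighbours in that order passed the test against each other (day 28 against day 7, -0.043, adjusted p = 0.601).

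Esr1 encodes oestrogen receptor alpha. Its log2 signals were 8.53, 8.26 and 8.39 at day 7, 7.40, 7.53, 7.78 and 8.00 at day 18, 7.22, 6.91, 7.03 and 7.18 at day 28, and 7.01, 6.26 and 6.58 at day 60. Each age up to day 28 lay wholly under the one before it, while 1 day 60 pool lay within the range of day 28. Esr1 fell by 0.72 ± 0.17 at day 18 against day 7, or 1.65-fold (limma adjusted p = 0.00315), and by 0.59 ± 0.16 at day 28 against day 18, or 1.51-fold (limma adjusted p = 0.012). At day 60 against day 28 the difference was -0.47 ± 0.17 (95% interval -0.83 to -0.11, limma adjusted p = 0.055). The SD of 0.38 at day 60 was the largest of the 4 ages.

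The last step of Esr1 passed the threshold under 8 of 23 alternatives, of which 4 each left out a single pool. The adjusted p was 0.0478 and 0.0424 on dropping replicate 1 or 4 of day 18, 0.0495 on dropping replicate 2 of day 28 and 0.0101 on dropping replicate 1 of day 60. Over the whole span Esr1 was 3.43-fold lower at day 60, with a mean of 6.62 ± 0.38, than at day 7, with a mean of 8.40 ± 0.14 (SD, 3 pools each, limma adjusted p = 7.94e-07). Fibroblast markers moved with Esr1 in part. The summed signal of the 7 markers ran from 15.11 to 15.19 at day 7, from 14.57 to 14.68 at day 18, from 14.59 to 14.76 at day 28 and from 14.37 to 14.41 at day 60, all 7 being above background at every age. Their part in the fall of Esr1 was not tested.

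Pgr encodes the progesterone receptor, a textbook target of oestrogen receptor alpha in the female tract. Its log2 signals were 5.48, 5.42 and 5.58 at day 7, 4.61, 4.82, 4.82 and 4.95 at day 18, 4.39, 3.81, 3.96 and 4.13 at day 28, and 3.84, 3.73 and 3.46 at day 60. The 3 day 7 pools and 1 day 18 pool were above background, and all others were under it. Pgr fell by 0.69 ± 0.13 at day 18 against day 7 (limma adjusted p = 0.000597) and by 0.73 ± 0.12 at day 28 against day 18 (limma adjusted p = 0.000428). At day 60 against day 28 it fell by 0.40 ± 0.13 (limma adjusted p = 0.038), although the highest day 60 pool overlapped the lowest of day 28.

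Because the means of Pgr from day 18 on were under background, the sizes of its falls are uncertain. Set against the background level, Pgr at day 60 was at least 1.49-fold lower than at day 7, where the measured means of 3.68 ± 0.20 and 5.49 ± 0.082 (SD, 3 pools each) gave 3.52-fold (limma adjusted p = 4e-08). The last call, at day 60 against day 28, was lost in 10 of 22 alternatives. Dropping a single pool gave an adjusted p of 0.0965 (replicate 1 of day 28), 0.0759 (replicate 4 of day 28), 0.0711 (replicate 2 of day 60) and 0.179 (replicate 3 of day 60), and centring the arrays gave 0.113. Both of its earlier falls passed under all 22 alternatives run for Pgr.

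Esr2, oestrogen receptor beta, and Gper1, a membrane receptor that responds to oestrogen, were at or under background. Esr2 had log2 signals of 4.94, 4.85 and 4.50 at day 7 and of 4.39 to 4.84 in the 11 later pools, with only the first of these above the background level. None of its steps passed, and the difference of day 60 against day 7 was -0.26 with a 95% interval of -0.53 to 0.018 (limma adjusted p = 0.117). Without day 7 replicate 3, the lowest pool of that age, Esr2 was called lower at day 18 (-0.34, adjusted p = 0.0393) and at day 60 (-0.39, adjusted p = 0.0193) than at day 7.

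Gper1 had log2 signals of 4.86, 4.35 and 4.66 at day 7, of 4.38 to 4.62 at day 18, of 5.04, 4.39, 4.35 and 4.41 at day 28, and of 4.48 to 4.58 at day 60. A single pool of day 28 was above background, and the ages overlapped throughout. The difference of day 60 against day 7 was -0.10 with a 95% interval of -0.46 to 0.25 (limma adjusted p = 0.655). Levels this near background leave changes of these genes hard to detect, and their signals do not show whether the receptors are absent.

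**Figure D2:**
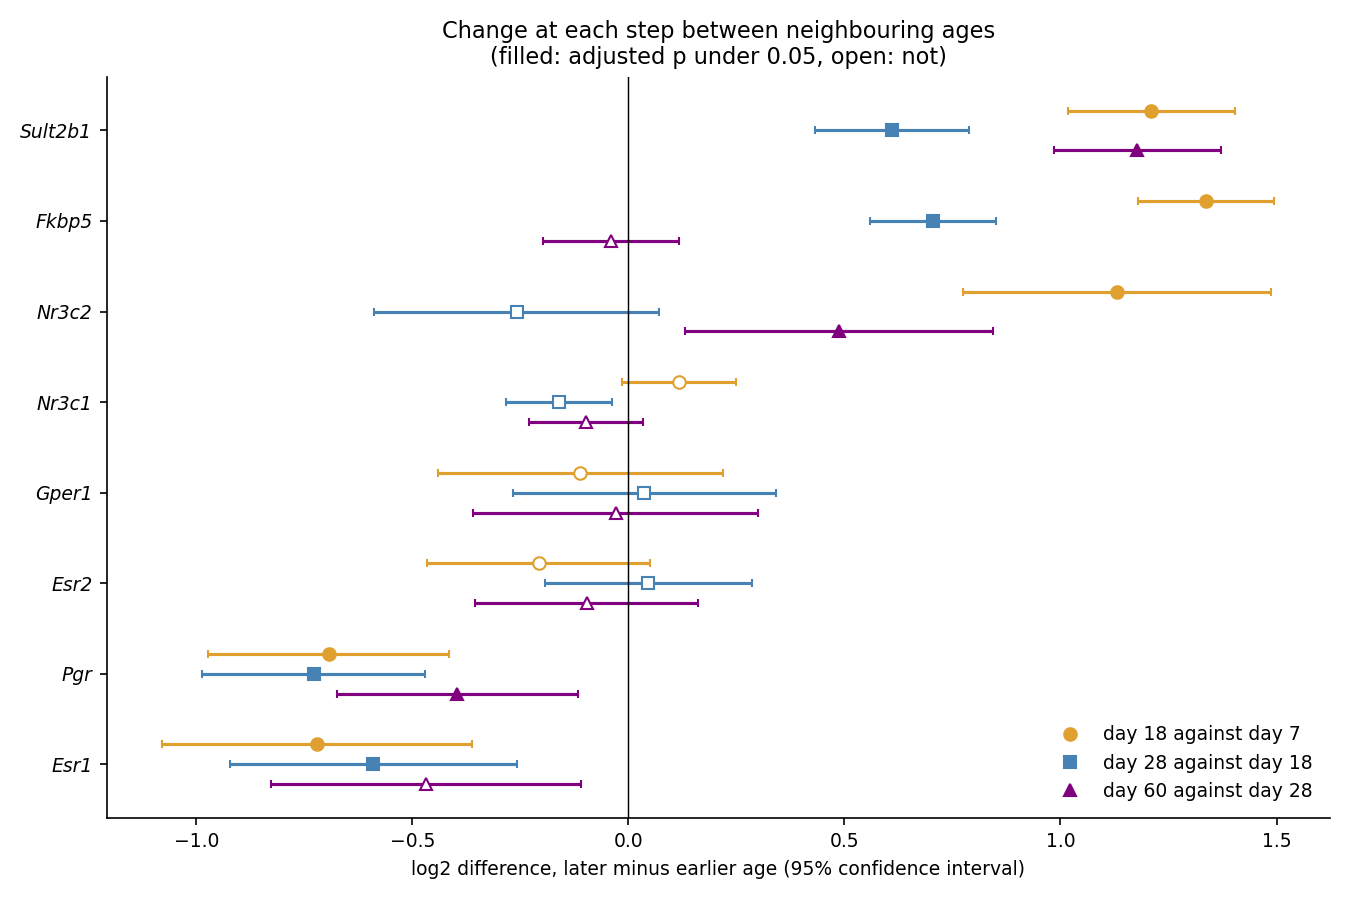
Log2 difference of the later minus the earlier age (horizontal axis) with its 95% confidence interval for the 8 genes (vertical axis) and the 3 steps between neighbouring ages. Filled marks passed an adjusted p of 0.05. Sult2b1 lies right of 0 at all 3 steps, Fkbp5 at the first 2, and the points of Esr1 and Pgr lie left of 0 at all 3, with the last step of Esr1 an open mark.

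Read step by step, the day 18 against day 7 comparison called 3 of the 8 genes higher (Nr3c2, Fkbp5 and Sult2b1) and 2 lower (Esr1 and Pgr), and it called 38.1% of all genes, 17.4% as higher and 20.7% as lower. At day 28 against day 18 it was 2 higher (Fkbp5 and Sult2b1) and 2 lower (Esr1 and Pgr), with 24.7% of all genes called, 10.5% as higher and 14.3% as lower. The day 60 against day 28 step had 2 higher (Nr3c2 and Sult2b1) and 1 lower (Pgr), with 25% of all genes called, 13.8% as higher and 11.2% as lower. Day 60 against day 7 had 3 higher and 2 lower, the genes of the first step, with 49.2% of all genes called, 21.7% as higher and 27.6% as lower. After centring every array on its median, the split of all genes was 1339 higher and 2890 lower at day 28 against day 18, beside 1899 and 2592 as deposited, and 2793 and 1104 at day 60 against day 28, beside 2511 and 2039.

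The median absolute difference of the 8 genes was 0.71 at day 18 against day 7, against 0.22 over all genes. It was 0.42 against 0.16 at day 28 against day 18, 0.25 against 0.18 at day 60 against day 28, and 1.57 against 0.30 at day 60 against day 7. Called differences of at least 2-fold numbered 3 of 8 at day 18 against day 7 (5.89% of all genes), 0 at day 28 against day 18 (2.16%), 1 at day 60 against day 28 (1.95%) and 5 at day 60 against day 7 (13.3%). The last count includes Pgr by its measured means, and its day 60 mean was under background. Pools of the ages compared did not overlap for 6 of 8 genes at day 18 against day 7 (45.1% of all genes), 5 at day 28 against day 18 (26.5%), 3 at day 60 against day 28 (31.4%) and 6 at day 60 against day 7 (57.8%). Without replicate 2 of day 28, the day 60 against day 28 step called 1 gene higher (Sult2b1) and 2 lower (Esr1 and Pgr). The genes were chosen with earlier results of these data known, so these figures describe them and support nothing further.

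The genes whose pattern was most like that of each receptor or response gene were taken by Pearson correlation over the 14 arrays, among 10200 other genes that passed the F test and reached background. For Fkbp5 they were Exoc3l4 (r = 0.997), the beta-defensin Defb13 (0.996) and Eid3 (0.996). For Sult2b1 they were the amino acid transporter Slc36a2 (0.992), Saraf (0.991) and Mtmr10 (0.99). For Nr3c2 they were Wfs1 (0.958), Srebf2 (0.944), a regulator of sterol synthesis, and the prostaglandin transporter Slco2a1 (0.942). For Nr3c1 they were Gprc5b (0.969), the interferon regulatory factor Irf1 (0.96) and Naprt (0.959). For Esr1 they were the centromere protein gene Cenpf (0.971), Sall2 (0.97) and Ticrr (0.968), a gene of DNA replication, and for Pgr they were Krba1 (0.986), Smtnl2 (0.986) and Ifitm2 (0.983). The 14 arrays share 4 ages, so most of each r reflects the age means.

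The 2 membrane-associated progesterone receptor components completed the list of steroid receptors. Only Pgrmc1 was called between neighbouring ages, and the other component was called only as higher at day 60 against day 7. Pgrmc1, which encodes a haem-binding protein of the endoplasmic reticulum, had means of 8.53 ± 0.085, 9.37 ± 0.066, 9.59 ± 0.025 and 9.92 ± 0.084 at day 7, 18, 28 and 60 (SD, 3, 4, 4 and 3 pools). It rose at every step, by 0.84 ± 0.071, 0.22 ± 0.066 and 0.33 ± 0.071 (limma adjusted p = 2.95e-07, 0.0247 and 0.0039), while Pgr, the classical receptor, fell. Of the 8 receptors measured, 2 rose and 2 fell at day 18 against day 7, 1 and 2 at day 28 against day 18, and 2 and 1 at day 60 against day 28. The counts of this and the following lists stand beside 17.4% of all genes higher and 20.7% lower at the first step, 10.5% and 14.3% at the middle one and 13.8% and 11.2% at the last, and no list was tested against them.

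Chaperones of the receptor complex moved in both directions, and Fkbp4 rose with Fkbp5 at the first step only. Fkbp4 encodes the co-chaperone that takes the place of Fkbp5 when hormone binds. It rose by 0.78 ± 0.067 at day 18 against day 7 (limma adjusted p = 2.82e-07) and then fell by 0.22 ± 0.062 at day 28 against day 18 and by 0.33 ± 0.067 at day 60 against day 28 (limma adjusted p = 0.0161 and 0.00228). The other large changes were falls of Stip1 (-0.64) and Cdc37 (-0.44), both of the Hsp90 machinery, at day 18 against day 7. At day 28 against day 18 Ppid, a cyclophilin of the complex, fell by 0.67 and the chaperone Hsp90ab1 by 0.47, and at day 60 against day 28 both fell again, by 0.69 and 0.35. Of 12 chaperone genes 3 rose and 3 fell at day 18 against day 7, 1 and 4 at day 28 against day 18, and 3 and 5 at day 60 against day 28, where Stip1 rose by 0.41 and Bag1 by 0.36. Over the whole span it was 3 and 8, beside 21.7% of all genes higher and 27.6% lower, with a median difference of -0.37 against -0.03 over all genes.

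Most genes known to respond to androgens in the epididymis rose at each step. Of 20 measured, 14 rose and 0 fell at day 18 against day 7, 18 and 0 at day 28 against day 18, and 14 and 0 at day 60 against day 28. Their median difference was 0.99, 1.10 and 0.73 at the 3 steps, against 0.01, -0.02 and -0.02 over all genes. The largest rises were those of Lcn5, a retinoid-binding lipocalin (5.41 ± 0.16), and Adam7, a membrane protein of the ADAM family (5.26 ± 0.14), at day 18 against day 7. They were followed by Spag11a (4.03 ± 0.22) and Crisp1 (3.70 ± 0.12), a defensin-like and a cysteine-rich secretory protein, at day 28 against day 18. The last step was led by the lipocalin gene Lcn9 (5.33 ± 0.31) and the cystatin Cst11 (4.98 ± 0.15). The day 7 mean of Adam7 (4.53) and the day 28 mean of Cst11 (3.82) were under background, so the sizes of those rises are uncertain. Sult2b1 belongs to this list, and 3 of its genes (Lcn5, Adam7 and Crisp1) are among the principal cell markers with the summed levels given above, as are Cst11, Aqp9, Ces5a, Defb1 and Spag11a.

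Genes known to respond to androgens in the prostate moved less uniformly. Of 36 measured, 18 rose and 6 fell at day 18 against day 7 (median difference 0.30), 12 rose and 5 fell at day 28 against day 18 (0.03), and 13 rose and 3 fell at day 60 against day 28 (0.17). Sat1, of polyamine breakdown, rose by 1.51 ± 0.085 at day 18 against day 7, next to Fkbp5. Elovl7, a fatty acid elongase, and Mme, the protease neprilysin, changed by -1.70 ± 0.18 and -1.67 ± 0.12 at that step. Odc1, of polyamine synthesis, rose by 1.04 ± 0.075 and Homer2 by 1.02 ± 0.088 at day 28 against day 18, where Elovl7 fell by 0.92 and Tsc22d3 by 0.79. Abcc4, an exporter of organic anions that include steroid sulfates, rose by 1.98 ± 0.14 at day 60 against day 28, the step at which Sult2b1 rose and Fkbp5 did not pass, while Odc1 fell by 0.63 and Mme fell by 0.42. Kap was called higher at that step with a day 28 mean of 4.27, under background, so the size of its rise is uncertain. The means of Abcc4 were 6.25 ± 0.26, 6.62 ± 0.11, 7.14 ± 0.24 and 9.12 ± 0.092 at day 7, 18, 28 and 60 (SD, 3, 4, 4 and 3 pools). Those of Mme were 8.98, 7.31, 8.31 and 7.89 at the same ages, so Mme stood higher at day 28 than at day 18 before its last fall.

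**Figure D3:**
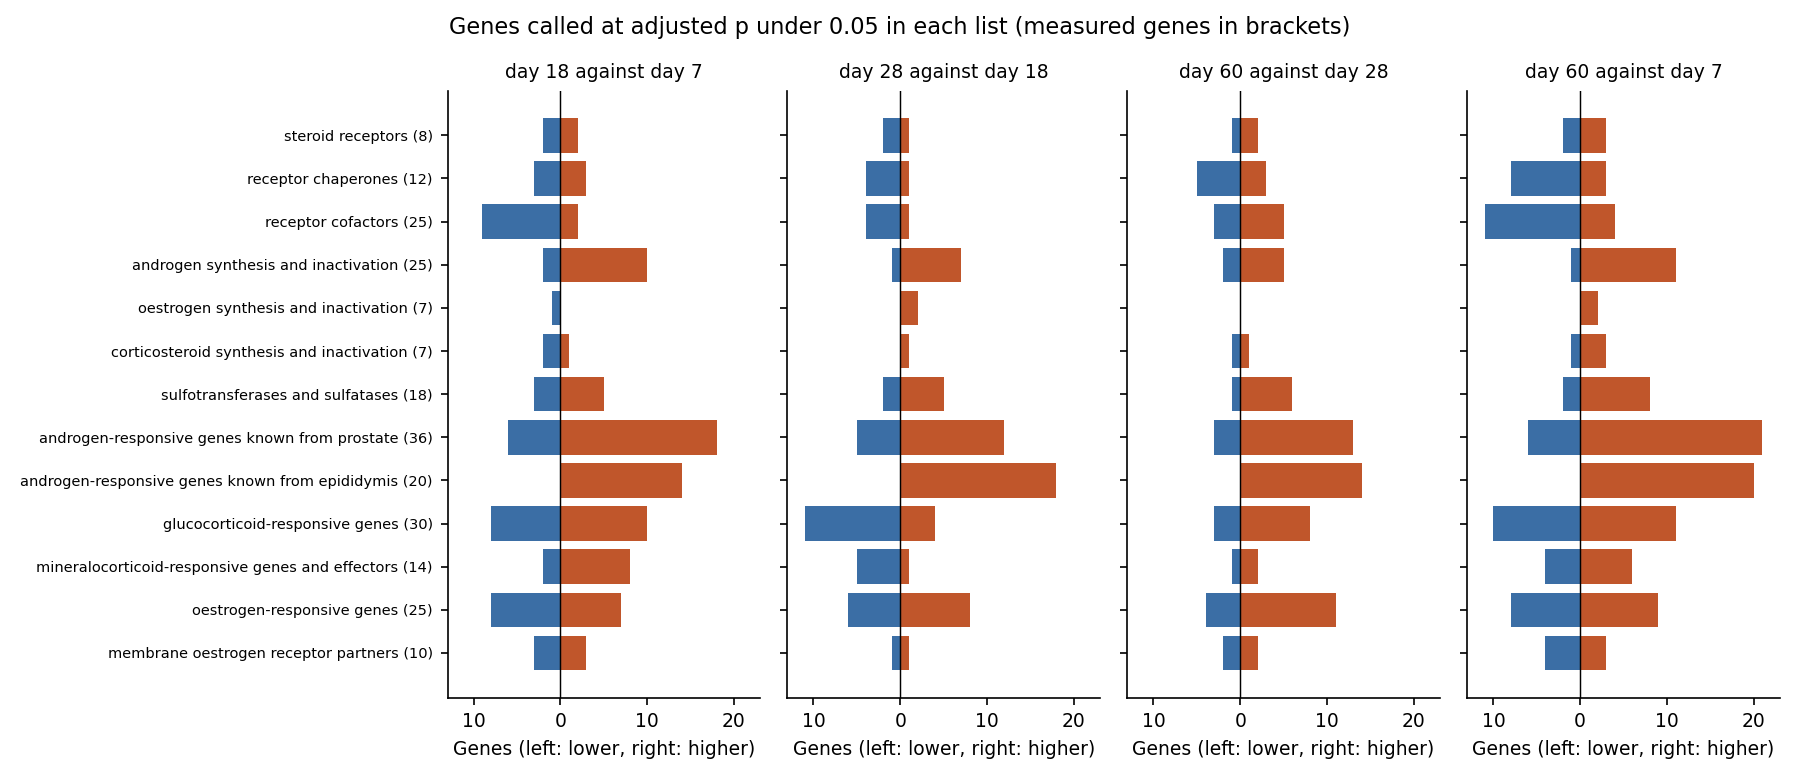
Number of genes called lower (blue, left of 0) and higher (orange, right of 0) at an adjusted p of 0.05 in 13 lists of steroid receptor, enzyme and response genes (rows, measured genes in brackets) for the 4 comparisons of ages (panels). In the epididymal androgen-response list 14, 18 and 14 of 20 genes were higher at the 3 steps and 0 were lower, and the glucocorticoid list was divided between both directions in each panel.

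Glucocorticoid-responsive genes did not share the pattern of Fkbp5, which is one of them. Of 30 measured, 10 rose and 8 fell at day 18 against day 7, 4 rose and 11 fell at day 28 against day 18, and 8 rose and 3 fell at day 60 against day 28. The median difference was 0.04, -0.14 and 0.12 at the 3 steps. Map3k6 rose with Fkbp5 at the first 2 steps, by 0.78 ± 0.090 and 0.48 ± 0.083. Dusp1, a phosphatase that also answers to handling and stress, fell by 2.39 ± 0.093 and the cell cycle inhibitor Cdkn1c by 1.82 ± 0.092 at day 18 against day 7. Tsc22d3, a widely used marker of glucocorticoid action, was lower at day 18 than at day 7 (-0.49 ± 0.11, limma adjusted p = 0.00247) and lower at day 28 than at day 18 (-0.79 ± 0.10, limma adjusted p = 4.68e-05). Anxa1 fell by 0.97 at day 28 against day 18 and by 0.60 at day 60 against day 28, where Rgs2 fell by 0.41 and Lcn2 and Dusp1 rose by 1.02 and 0.95.

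The enzymes that set corticosteroid exposure moved apart. Hsd11b2 inactivates corticosterone and so lets aldosterone reach Nr3c2, and Hsd11b1 regenerates corticosterone with the help of H6pd. Hsd11b2 had means of 6.61 ± 0.17, 5.81 ± 0.24, 5.75 ± 0.052 and 5.60 ± 0.16 at day 7, 18, 28 and 60 (SD, 3, 4, 4 and 3 pools). It fell by 0.80 ± 0.12 at day 18 against day 7 (limma adjusted p = 0.000108), the step at which Nr3c2 rose by 1.13. Hsd11b1 fell by 0.31 ± 0.083 at the first step, then rose by 0.31 ± 0.077 at day 28 against day 18 and by 0.58 ± 0.083 at day 60 against day 28, and H6pd rose by 0.75 ± 0.10 at day 18 against day 7. Of the 7 corticosteroid enzymes measured, 1 rose and 2 fell at day 18 against day 7, 1 and 0 at day 28 against day 18, and 1 and 1 at day 60 against day 28, where Cyp21a1 was called lower with both means under background.

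Among 14 mineralocorticoid-responsive genes and effectors 8 rose and 2 fell at day 18 against day 7 (median difference 0.46), 1 rose and 5 fell at day 28 against day 18 (-0.10), and 2 rose and 1 fell at day 60 against day 28 (0.13). Scnn1a, the alpha subunit of the epithelial sodium channel, had means of 6.36 ± 0.11, 7.66 ± 0.13, 6.95 ± 0.13 and 7.84 ± 0.24 at day 7, 18, 28 and 60 (SD, 3, 4, 4 and 3 pools). It rose by 1.30 ± 0.11, fell by 0.71 ± 0.11 and rose by 0.89 ± 0.11 (limma adjusted p = 4.52e-07, 0.000179 and 6.35e-05). The differences of Nr3c2 at the same steps were 1.13, -0.26 and 0.49, of which the middle one did not pass. Scnn1b, the beta subunit, rose by 0.93 ± 0.28 at day 18 against day 7, and Nedd4, a ubiquitin ligase, fell by 0.41. At day 28 against day 18 the sodium chloride cotransporter gene Slc12a3 rose by 1.14 ± 0.15 and Edn1, endothelin 1, fell by 1.65 ± 0.10, and at day 60 against day 28 Per1 rose by 0.46 and Edn1 fell by 0.49. The means of Edn1 were 7.78, 8.51, 6.86 and 6.37 at day 7, 18, 28 and 60, so its falls began from a day 18 mean above that of day 7.

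Oestrogen-responsive genes were divided at every step, while Esr1 was lower with age, and the part of Esr1 in their changes was not tested. Of 25 measured, 7 rose and 8 fell at day 18 against day 7, 8 rose and 6 fell at day 28 against day 18, and 11 rose and 4 fell at day 60 against day 28, with median differences of 0.0042, 0.14 and 0.13. Pgr belongs to this list, and its falls at each step are counted here again. Slc9a3, the sodium-proton exchanger that in the mouse efferent ducts depends on Esr1, rose by 1.86 ± 0.20 at day 60 against day 28 (limma adjusted p = 1.17e-05). Its means were 5.59 ± 0.064, 5.75 ± 0.30, 6.79 ± 0.42 and 8.65 ± 0.18 at day 7, 18, 28 and 60 (SD, 3, 4, 4 and 3 pools). The water channel Aqp1 fell by 1.18 ± 0.19 and the neuropeptide Gal by 1.03 ± 0.16 at day 18 against day 7, while Ltf, lactoferrin, rose by 1.75 ± 0.13 and the complement gene C3 by 1.48 ± 0.10. The next step, day 28 against day 18, had increases of 1.74 for Ltf and 1.08 for Ramp3, and changes of -1.68 for the anion channel gene Cftr and -1.03 for the keratin gene Krt19. In the last step C3 rose by 1.15 and Ltf and Krt19 fell by 0.66 and 0.63. The means of C3 were 6.56, 8.04, 7.02 and 8.17 at day 7, 18, 28 and 60, so C3 stood lower at day 28 than at day 18.

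Among the genes of oestrogen formation and inactivation, Cyp19a1, the aromatase that makes oestrogen from androgen, had means of 3.03 to 3.36 at the 4 ages, under background. Of 7 genes measured, 0 rose and 1 fell at day 18 against day 7 (14.3% called, against 38.1% of all genes), 2 rose and 0 fell at day 28 against day 18 (28.6% against 24.7%), and 0 were called at day 60 against day 28, where 25% of all genes were. Cyp1b1, which hydroxylates oestradiol, fell by 0.71 ± 0.12 at the first step and rose by 0.91 ± 0.11 at the next, and Hsd17b2, which oxidises oestradiol and testosterone, rose by 0.62 ± 0.17 at day 28 against day 18 with both means under background.

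Of 25 enzymes of androgen synthesis and inactivation, 10 rose and 2 fell at day 18 against day 7 (median difference 0.20), 7 rose and 1 fell at day 28 against day 18 (0.14), and 5 rose and 2 fell at day 60 against day 28 (0.036). In all 48%, 32% and 28% of them were called at the 3 steps, against 38.1%, 24.7% and 25% of all genes, so the last share was near that of all genes. Rdh16, a microsomal dehydrogenase of retinol and of 3-alpha-hydroxysteroids, had means of 5.45 ± 0.28, 6.42 ± 0.19, 7.89 ± 0.081 and 9.25 ± 0.11 at day 7, 18, 28 and 60 (SD, 3, 4, 4 and 3 pools). It rose by 1.47 ± 0.12 at day 28 against day 18 and by 1.36 ± 0.13 at day 60 against day 28 (limma adjusted p = 3.98e-07 and 3.32e-06). Hsd17b11, a lipid droplet enzyme that can oxidise 17-beta-hydroxysteroids, rose by 1.27 ± 0.071 at day 18 against day 7 and by 0.66 ± 0.066 at day 28 against day 18. Cyp7b1 and Hsd17b12 fell by 0.63 and 0.40 at the first step, and Hsd17b10 fell by 0.24 at day 28 against day 18. Hsd3b2 rose by 1.62 and fell by 0.90 at the first and last steps, and Akr1c14 and Akr1c3 changed by 0.84 and -0.42 at the last, but these genes have close paralogs whose signal was not separated, and several of their means were under background.

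Sulfation genes around Sult2b1 were uneven. Of 18 sulfotransferases, sulfatases and sulfate suppliers measured, 5 rose and 3 fell at day 18 against day 7 (median difference 0.06), 5 rose and 2 fell at day 28 against day 18 (0.15), and 6 rose and 1 fell at day 60 against day 28 (0.12). Sult5a1, another sulfotransferase, rose at each step as Sult2b1 did, by 0.56 ± 0.12, 1.38 ± 0.11 and 0.87 ± 0.12 (limma adjusted p = 0.00137, 3.34e-07 and 8.33e-05). Papss2, which makes the activated sulfate that these enzymes use, fell by 1.47 ± 0.085 at day 18 against day 7, the first step of the rise of Sult2b1, with means of 10.48 ± 0.05, 9.01 ± 0.056, 9.44 ± 0.14 and 10.25 ± 0.095 at day 7, 18, 28 and 60 (SD, 3, 4, 4 and 3 pools). The sulfate transporter Slc26a2 rose by 0.71 ± 0.097 at day 28 against day 18. At that step Papss1 and Slc35b2, which supply activated sulfate as well, fell by 0.26 and 0.25, and at day 60 against day 28 Slc35b2 fell by 0.28. Sult2a1 was called lower at day 18 than at day 7, with both means under background.

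**Figure D4:**
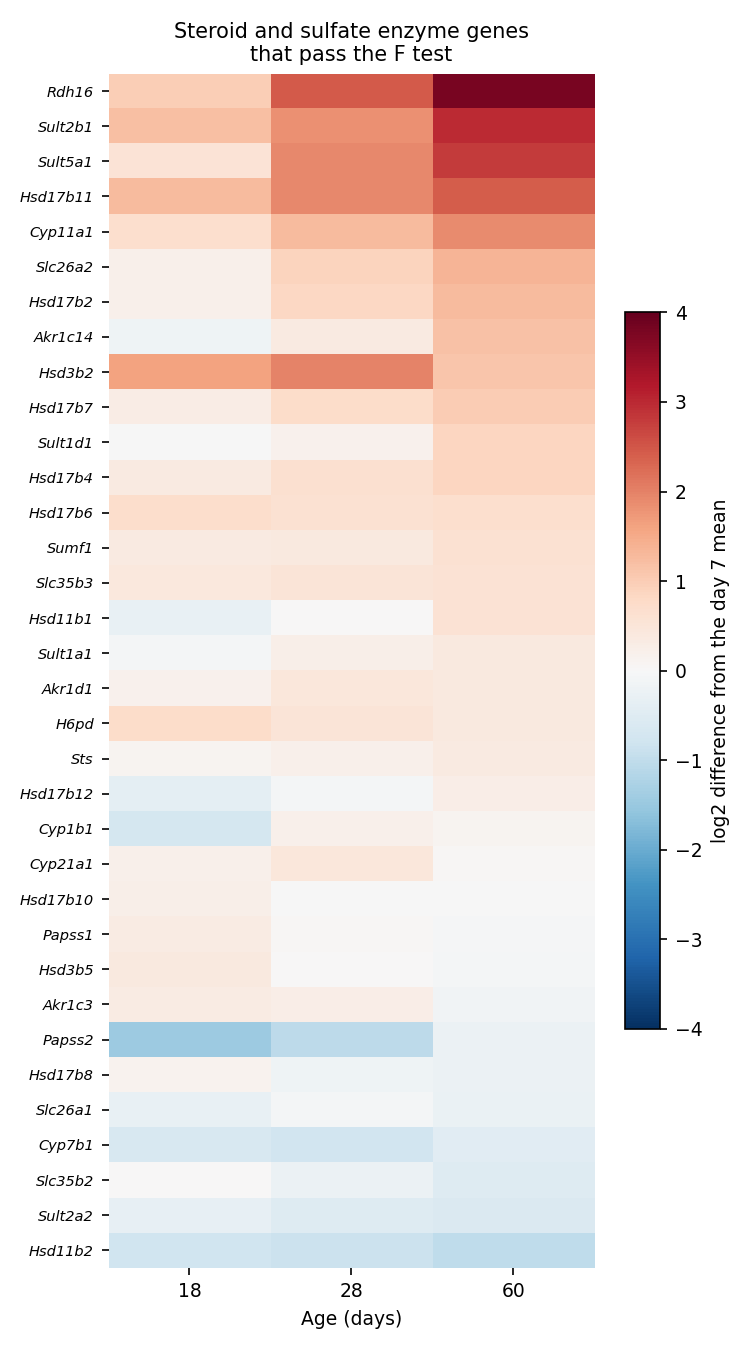
Log2 difference from the day 7 mean (colour) of the 34 of 54 steroid and sulfation enzyme genes that passed the F test (rows) at day 18, 28 and 60 (columns), ordered by their day 60 value. Of all genes, 60.4% passed that test. At day 60 the values run from 3.80 for Rdh16, with Sult2b1 next at 3.00, to -1.02 for Hsd11b2, and 23 genes lie above and 11 below their day 7 mean.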

How the data were processed

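The values are log2 signals per transcript cluster, and per the submitters' processing notes the authors processed the arrays with RMA and the Transcriptome Analysis Console. Versions, settings and genome build are not given in the sources used here, so no coordinates are given for the clusters. RMA normalizes by quantiles, which removes shifts shared by most genes. The deposited table holds 36685 clusters. Symbols came from the platform annotation. Where a gene had several clusters, the one with the highest mean was kept, which gave 18166 genes, of which 18059 matched RefSeq by gene identifier. No filter on low signal was applied.

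The 4 ages were modelled together by limma 3.58.1 (R 4.3.3) on the 14 arrays, without trend or robust settings, and tested two-sided, with Benjamini-Hochberg adjustment over the 18166 genes and a threshold of 0.05. The comparisons were neighbouring ages and day 60 against day 7, and day 28 against day 7 and day 60 against day 18 were added to order levels. The number of pools limits the precision.

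The genes and lists were chosen with earlier results of these data known. Lists came from general knowledge. For each list and step the 2 largest called rises and falls are named, and Pgrmc1, Fkbp4, Tsc22d3, Cyp19a1, Hsd11b1, Hsd11b2, Scnn1a, Sult5a1 and Papss2 are given at further ages for their role, chosen after their values were seen. Promoter sequences came from RefSeq (GRCr8), for 6 of the 8 genes. Alternatives were another quantile normalization, centring on array medians, genes at or above the median level, trend with robust settings, the arrays of 2 ages alone, replicate numbers as blocks, weighting of arrays, averaging the clusters of each gene, testing every cluster, and leaving out each pool in turn.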

Additional observations from a re-analysis of the deposited data

Results flagged for a closer look

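Replicate 1 of day 28 stood apart for Gper1, with a log2 signal of 5.04 against 4.35 to 4.41 in the other day 28 pools. The gap to the nearest pool was 0.92 of the range of the group, above Dixon's 95% critical value for 4 samples. It was the single case among 16 groups of 4 pools examined, where chance marks about 1 in 20. Without that pool Gper1 differed by -0.13 at day 28 against day 18 (adjusted p = 0.419) and by 0.14 at day 60 against day 28 (adjusted p = 0.421).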

How the results depend on the processing

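Over the alternatives no difference of the 8 genes reversed with a call on either side: 684 fits kept the call, 21 lost it and 15 gained one. The calls for Fkbp5 and Sult2b1, and the day 60 against day 7 calls for Esr1, Pgr and Nr3c2, held in every alternative run for them. The cause of the following moves was not tested, except where a filter removed genes. At day 60 against day 28, where the fit as described called 2 of the 8 genes higher and 1 lower, centring on medians gave 0 lower (and 1104 genes lower in all), the arrays of the 2 ages alone and every cluster gave 1 higher and 0 lower, array weights gave 1 higher and 2 lower, and leaving out 1 pool gave 1 to 2 higher and 0 to 2 lower. Genes at or above the median level, a filter that removes Pgr, Nr3c2, Esr2 and Gper1, gave 1 lower at day 18 against day 7, 1 higher at day 60 against day 28 and 1 lower at day 60 against day 7. With the replicate block 0 were lower at day 60 against day 28 (Pgr adjusted p = 0.0838). Same-numbered pools of different ages did not deviate together (correlations of -0.14 to 0.046, median 0.0071, over 19 pairs). With 3 or 4 pools per age this cannot settle whether the numbers pair the pools. The block changed no other call of the 8 genes. Centring shifted the median gene by -0.049, -0.055 and 0.067 at the 3 steps. Signals near background limit what can be said of Esr2, Gper1 and Pgr.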

Other observations

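Of 25 cofactors of steroid receptors measured, 2 rose and 9 fell at day 18 against day 7 (median difference -0.14), 1 rose and 4 fell at day 28 against day 18 (-0.10), and 5 rose and 3 fell at day 60 against day 28 (0.01). In all 44%, 20% and 32% were called at the 3 steps, against 38.1%, 24.7% and 25% of all genes. Tgfb1i1, a focal adhesion protein that also binds the androgen receptor and is abundant in smooth muscle, fell by 1.55 ± 0.12 at day 18 against day 7, then rose by 0.47 ± 0.11. Gata2, a transcription factor that works with steroid receptors in the prostate, fell by 1.10 ± 0.089 at day 18 against day 7 and by 0.61 ± 0.089 at day 60 against day 28. Ncoa2, a coactivator of the p160 family, rose by 0.46 ± 0.068 and Ncoa4 by 0.17 ± 0.065 at day 18 against day 7. At day 28 against day 18 Ddx17 and Pias1 fell by 0.41 and 0.24. At day 60 against day 28 Lcor and Ncoa6 rose by 0.59 and 0.54, and Ddx5 fell by 0.49.

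Summed smooth muscle markers, 5 of 7 measured, ran from 12.75 to 13.12 at day 7, from 12.25 to 12.61 at day 18, from 12.91 to 13.22 at day 28 and from 13.02 to 13.13 at day 60, beside the values of Tgfb1i1. Their part in its change was not tested.

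Partners of membrane oestrogen signalling were divided, with 3 rising and 3 falling of 10 at day 18 against day 7, 1 and 1 at day 28 against day 18, and 2 and 2 at day 60 against day 28. That is 60%, 20% and 40% called, against 38.1%, 24.7% and 25% of all genes. Ramp3, an accessory protein of receptors in the membrane, rose by 0.81 ± 0.10, 1.08 ± 0.093 and 0.43 ± 0.10 at the 3 steps. Mmp9 rose by 0.62 ± 0.16 and Mmp2 fell by 0.96 ± 0.084 at the first step, and Adcy6 fell by 0.32 and Mmp9 rose by 0.57 at the last. The cluster of Gnas, a locus of several overlapping transcripts, fell by 2.68 ± 0.19, 0.67 ± 0.18 and 0.72 ± 0.19 with means under background at day 28 and day 60.

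Markers of Leydig cells, which make androgen in the testis, gave summed signals of 7.61 to 7.90 at day 7, 7.62 to 7.82 at day 18, 7.75 to 8.14 at day 28 and 7.96 to 8.09 at day 60, with Cyp17a1 under background at every age and 3, 3, 3 and 4 of 5 markers above it at day 7, 18, 28 and 60. Cyp11a1, the enzyme that starts steroid synthesis from cholesterol, averaged 4.28 ± 0.33, 4.96 ± 0.36, 5.54 ± 0.19 and 6.18 ± 0.082 over the same 4 ages (SD, 3, 4, 4 and 3 pools) and was called higher at each step (limma adjusted p = 0.0075, 0.0203 and 0.0189). Its day 7 mean was under background, so the size of its first rise is uncertain. Lhcgr, another of these markers, was called lower at day 18 against day 7 (-0.71, limma adjusted p = 0.000155) and at day 28 against day 18 (-0.37, limma adjusted p = 0.0192). At day 60 against day 28 Lhcgr was called higher (0.59, limma adjusted p = 0.00165), and its means at day 18 and day 28 were under background. Sertoli cell markers gave 7.98 to 8.20, 8.11 to 8.14, 8.06 to 8.24 and 8.10 to 8.23 at the same ages, with Fshr under background throughout and 4, 3, 4 and 4 of 5 markers above it. At day 60 against day 7 Inha was higher by 0.49 (limma adjusted p = 0.00985) and Gata4 was lower by 0.46 (limma adjusted p = 0.0303). Gata4 was also lower by 0.46 at day 18 against day 7 (limma adjusted p = 0.027).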
